A study of Homo sapiens with 2 samples.

Results

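The unfolded protein response and the ATF4 response were followed through 31 genes in OECM1 cells, a line derived from a head and neck cancer. The cells carried a vector for the microRNA let-7i or an empty vector. The genes were chosen by name, as endoplasmic reticulum (ER) chaperones, ER-associated degradation factors, ER stress sensors, and ATF4-linked stress and amino acid genes. They and the further lists below were chosen with earlier results of these data known. Every probe set whose platform symbol was one of these names was taken, which gave 65 of the 54675 probe sets on the array and 31 of 19775 named genes. The first group, OECM1-mCherry, was stably transfected with the pmR-mCherry empty vector, and the second, OECM1-let7i, with pmCherry-let7i, which expresses let-7i. Both were grown in RPMI with fetal bovine serum, both carry a red fluorescent mCherry vector, and whether either line is a clone or a pool was not given in the sources used here. There was a single array for either group (n = 1), which leaves differences without a replicate check, and neither a test across samples nor a p-value is given. In a bulk extract, less RNA per cell and fewer cells with that RNA cannot be told apart.

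Proteins of the secretory pathway fold in the ER with the help of chaperones and of enzymes that form disulfide bonds. When unfolded protein builds up, the membrane sensors ATF6, ERN1 (IRE1) and EIF2AK3 (PERK) are activated: cleaved ATF6 and spliced XBP1 induce chaperone and degradation genes, while PERK phosphorylates the translation factor eIF2-alpha. That phosphorylation lowers general translation but favours translation of ATF4, a transcription factor that drives amino acid transport and synthesis, and other eIF2-alpha kinases reach ATF4 without ER stress. In carcinoma cells both branches are known for their part in secretory load and nutrient limitation.

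The microRNA in the vector of the second group is let-7i, whose mature form hsa-let-7i-5p lies at chr12:62603691-62603712 on the plus strand of GRCh38.p14. It is printed 5′ to 3′ from the RefSeq table with its seed, bases 2 to 8, in capitals.
hsa-let-7i-5p: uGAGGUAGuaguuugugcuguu
Sites for this seed in the member transcripts were not analysed here, and the array does not measure the mature microRNA.

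The ER branch and the ATF4 branch are known to act through different promoter letters, which gives a grouping of the members that does not rest on their signal. RefSeq promoter windows of GRCh38.p14, from 250 bases before to 50 after each gene's start, were matched for 29 of the 31 members, the others being PSPH and SHMT2. Both strands were searched for the ER stress response element (ERSE: CCAAT, any 9 letters, CCACG), for its variant ERSE-II (ATTGG, any 1 letter, CCACG) and for the composite C/EBP-ATF element that ATF4 binds (CARE: TGATG, any 1 letter, AA). The ERSE letters stood in the windows of 5 members, HSPA5, HSP90B1, PDIA6, CALR and XBP1, against 25 of 27305 genes of any type with a window (0.0916%). Of the 8 chaperone and foldase members 4 held them, and they are shown as the element through which the ER branch is known to act, each 5′ to 3′ on the strand of the motif, with the fixed letters of the motif in capitals.
HSPA5, chr9:125241386-125241414, minus strand: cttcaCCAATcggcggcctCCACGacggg
HSP90B1 distal, chr12:103930211-103930239, plus strand: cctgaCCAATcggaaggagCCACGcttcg
HSP90B1 proximal, chr12:103930316-103930344, minus strand: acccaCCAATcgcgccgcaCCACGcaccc
CALR, chr19:12938379-12938407, minus strand: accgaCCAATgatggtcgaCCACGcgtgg
PDIA6, chr2:10812848-10812876, minus strand: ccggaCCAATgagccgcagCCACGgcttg
XBP1, chr22:28800598-28800626, minus strand: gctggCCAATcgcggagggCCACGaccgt
The ERSE-II letters stood in the windows of SDF2L1 and HERPUD1, against 19 genes in all (0.0696%).
SDF2L1, chr22:21642105-21642133, minus strand: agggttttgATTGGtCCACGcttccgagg
HERPUD1, chr16:56932016-56932044, plus strand: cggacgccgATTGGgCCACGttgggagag
The CARE letters stood in the windows of 4 members, ASNS, SLC3A2, CHAC1 and HERPUD1, against 1217 genes (4.46%), and the match of SLC3A2 lies after the start site and is not printed.
ASNS, chr7:97872459-97872486, minus strand: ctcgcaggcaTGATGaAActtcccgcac
CHAC1, chr15:40953252-40953279, minus strand: ctggcaggagTGATGcAAcggcagggga
HERPUD1, chr16:56931956-56931983, minus strand: gggcacgggcTGATGcAAcccgccgcgt
The matches printed for different motifs do not overlap each other. HERPUD1 was the only member with letters of both branches in its window. A match describes the letters and is neither a site of binding nor a cause. The counts over all genes include the members. Because the members were chosen as known genes of these branches, a larger share among them is no result of these data.

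Signals are MAS5 intensities, which summarise the perfect-match and mismatch probes of a probe set on a linear scale in arbitrary units, and they do not compare levels between genes. The median signal, used as a floor for calling a gene measured, was 88.0 (empty vector) and 79.5 (let-7i). Of all genes, 11140 were measured on both arrays and 12284 on at least 1. Log2 ratios are let-7i over empty vector, centred on the median of the genes measured on both arrays. The spread of 1 probe set, from pairs of probe sets of the same gene, was an SD of 0.34 among the dimmest 1452 of 5807 pairs and 0.15 among the brightest 1452, and covers probe noise only. Of 10 squamous epithelial markers 7 had a probe set of their own and 4 (CDH1, EPCAM, DSP and LAMB3) were above the floor. Summed signals over the list were 30463 (empty vector) and 25696 (let-7i). In the same order, CDH1 (6785 and 5090) and EPCAM (10912 and 6690) were lower with let-7i. DSP (7628 and 8220) and LAMB3 (5038 and 5650) were higher. KRT5, KRT14 and DSG3, which define stratified squamous cells, were below the floor on both arrays. For fibroblast markers 3 of 8 were above the floor and the summed signals were 870.1 (empty vector) and 1274 (let-7i). Leukocyte markers, 2 of 6 above the floor, summed to 466 and 395, and endothelial markers, 1 of 6, to 481 and 489. The fibroblast markers above the floor, COL1A1 (346 and 415), DCN (163 and 322) and FAP (229.6 and 392), were each higher with let-7i, while COL1A2, COL3A1, LUM, PDGFRA and PDGFRB were below it on both arrays. CD3E and CD79A were the leukocyte markers above the floor and PECAM1 the endothelial one, with PTPRC and CDH5 below it on both arrays, and the part of such cells in the results was not tested.

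No member reached a 2-fold difference between the 2 cultures at the settings used. Of the 31 genes 30 were measured on both arrays, and CHAC1 on neither. The counts past 2-fold were thus 0 for higher and 0 for lower members, against 1.06% and 1.38% of the 12284 genes measured on at least 1 array. PPP1R15A lay at the threshold, at 1.996-fold higher. At 1.5-fold it was the only member, 1 of 30 (3.33%) higher and 0 lower, against 4.18% and 5.93% of all genes. The median log2 ratio of the measured members was 0.02, with 16 above 0 and 14 below. It turned to -0.02 with lowess centring and to -0.03 after quantile normalization. Without shared probe sets it was -0.035, with 8 members higher and 12 lower. Shared probe sets here are those named _s_at or _x_at, which can match several transcripts, while those named _a_at were kept. By role, 6 of 8 ER chaperones and foldases were lower, and 11 of 15 ATF4, stress and amino acid genes were higher, against 50% of all genes in each direction. Without shared probe sets the latter count was 5 of 9.

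**Figure D1:**
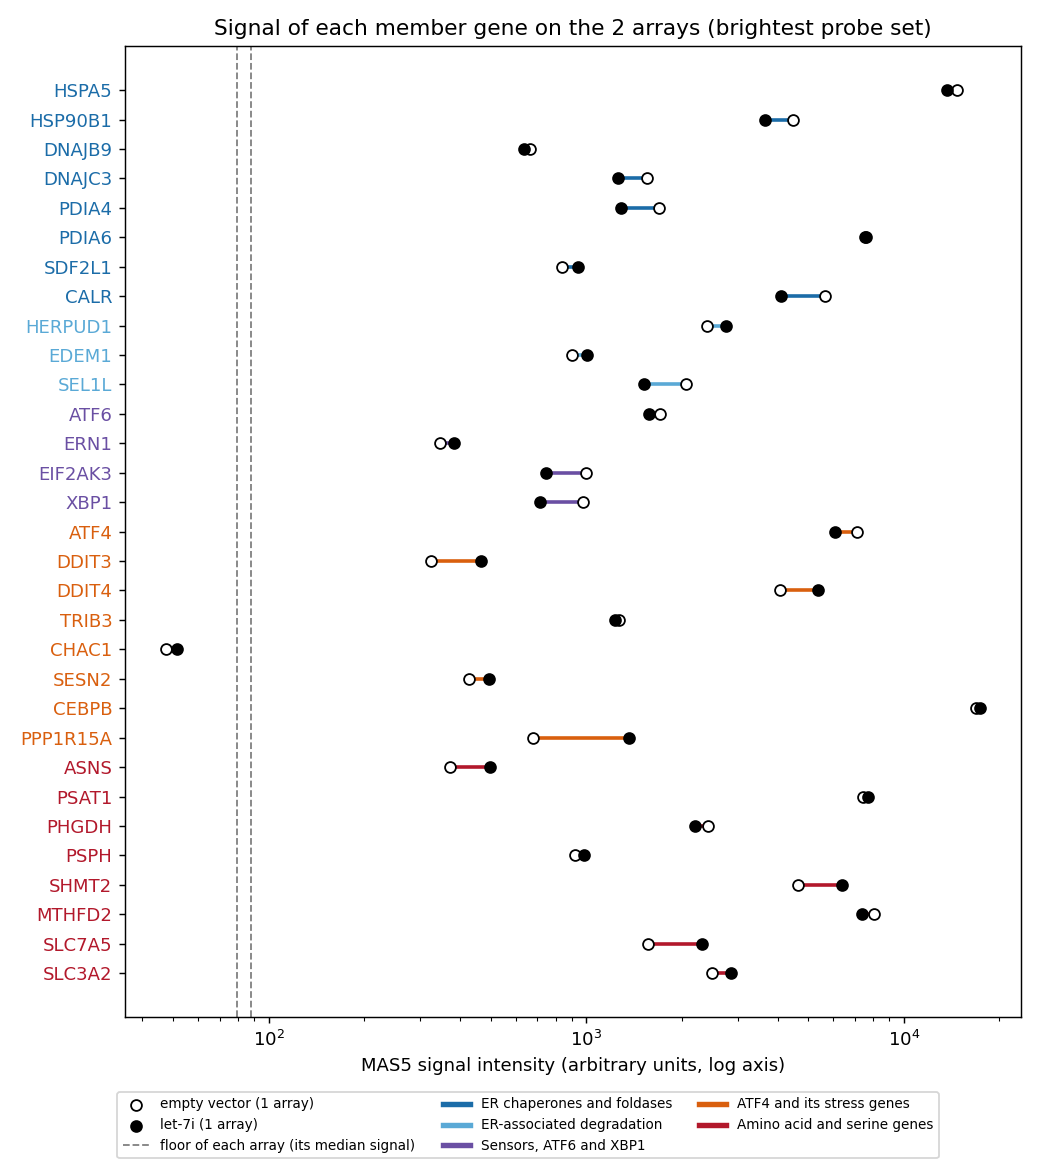
Signal of each member gene on the 2 arrays (horizontal log axis, arbitrary MAS5 units), from its brightest probe set, with open circles for the empty vector, filled circles for let-7i and dashed lines for the floors of 88.0 and 79.5. Only CHAC1 lies below the floors, and PPP1R15A has the longest line, from 682 to 1364.

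The ER chaperones and foldases had a median log2 ratio of -0.20, a 1.15-fold lower level with let-7i, and ranged from -0.46 to 0.17. HSPA5 (BiP), the ER Hsp70 and the chief sensor-binding chaperone, measured 14669 and 13699 (log2 ratio -0.10), the signal of the empty vector standing first here and for every gene that follows. Its second probe set was dim (176 and 227) and gave 0.37, so the mean over its probe sets was 0.15 and the direction of HSPA5 turned with that choice. HSP90B1 (GRP94), the ER Hsp90, measured 4473 and 3643 (log2 ratio -0.30), and its other probe set gave -0.45. Both probe sets of HSP90B1 can match more than 1 transcript. CALR, the calcium-binding lectin chaperone calreticulin, had signals of 5623 and 4112 and was 1.37-fold lower. All 3 of its probe sets pointed down, from -0.52 to -0.19, and its brightest lay beyond 2 SD of 1 probe set at that brightness, as no other chaperone member did.

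PDIA4 and PDIA6 are protein disulfide isomerases, which form and rearrange disulfide bonds. PDIA4 measured 1690.3 and 1283 (log2 ratio -0.40), and its dimmer probe set gave -0.05. PDIA6 measured 7565 and 7600.1 (log2 ratio 0.003), and its other 3 probe sets ranged from -0.27 to -0.05. The value of PDIA6 turned negative with the mean over its probe sets (-0.11), lowess centring (-0.04), quantile normalization (-0.04), a floor at the 65th percentile (-0.01) and without shared probe sets (-0.03), so its direction is not settled.

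Among the co-chaperones, DNAJC3 (P58IPK), which also restrains PERK, had signals of 1552 and 1262. Its 4 probe sets gave log2 ratios from -0.71 to -0.01, with -0.30 in the brightest, and without shared probe sets the value was 0.01. DNAJB9 (ERdj4), a partner of BiP, had signals of 666 and 637, and its 3 probe sets lay between -0.12 and 0.29. The mean over the probe sets of DNAJB9 was 0.05, the opposite sign to its brightest (-0.07). SDF2L1, a component of an ER chaperone complex, was higher, with signals of 838 and 943 in its single probe set and a log2 ratio of 0.17. The only other member of the group above 0 was PDIA6, at 0.003.

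The degradation factors were split. HERPUD1, which helps to assemble the ER degradation complex, measured 2397 and 2758 (log2 ratio 0.20). EDEM1, a lectin that hands misfolded glycoproteins to degradation, measured 899 and 1001 (log2 ratio 0.15). Each of these values lay within 2 SD of 1 probe set. SEL1L, the adaptor of the ligase that removes misfolded proteins, had signals of 2062 and 1514 and was 1.36-fold lower. Its 3 measured probe sets all pointed down, from -0.65 to -0.16.

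Of the sensors and their transcription factors, 3 of 4 were lower, with a median of -0.27. XBP1, the factor that ERN1 activates by splicing its messenger, had signals of 979 and 713 and was 1.38-fold lower, the lowest log2 ratio of the members at -0.46. EIF2AK3, the PERK kinase, had signals of 1000.5 and 746 and was 1.34-fold lower, a log2 ratio of -0.43. Both lay just beyond 2 SD of 1 probe set, and each rests on 1 measured probe set. ATF6, the cleaved membrane factor, had signals of 1707 and 1572, and its 4 probe sets ranged from -0.37 to 0.07. ERN1, the IRE1 kinase and nuclease, had signals of 345 and 384, and its 3 probe sets ran from -0.27 to 0.33. For ATF6 and ERN1 the probe sets therefore disagreed in sign, and splicing of XBP1, cleavage of ATF6 and phosphorylation of the kinases are not measured by this array.

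ATF4 and its stress genes had a median log2 ratio of 0.21 over 7 measured members, of which 5 were higher. The median was 0.05 over the 5 members left without shared probe sets, 3 of them higher, and 0.41 with the mean over probe sets. ATF4 itself, the factor at the head of this branch, measured 7132 and 6069 (log2 ratio -0.24) in its single probe set. Its message was thus on the lower side, while its protein, which is set by translation, was not measured. PPP1R15A (GADD34), the phosphatase subunit that removes phosphate from eIF2-alpha, had signals of 682 and 1364. Its 2 probe sets gave log2 ratios of 0.997 and 1.003, on either side of 2-fold, and 0.88% of all genes measured on both arrays had a ratio at least as high. The call of PPP1R15A at 2-fold thus depends on a shift of 0.004 from centring and is made with no centring, with a floor at the 25th percentile, with the mean over probe sets and without shared probe sets, while the size stayed between 0.99 and 1.02 in every setting tried.

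DDIT4 (REDD1), a stress-induced inhibitor of mTORC1, had signals of 4086 and 5350.2 and was 1.31-fold higher in its 1 probe set. DDIT3 (CHOP), a transcription factor of prolonged ER stress, measured 325 and 465 (log2 ratio 0.51). It was 1.43-fold higher by size, but dim enough that 2 SD of 1 probe set cover the difference. SESN2, a leucine sensor that acts on mTORC1, measured 426 and 493 (log2 ratio 0.21), and its dimmer probe set (121 and 228) gave 0.90. TRIB3, a pseudokinase that restrains ATF4, had signals of 1265 and 1232, and its 2 probe sets gave -0.04 and -0.02. CEBPB, a partner of ATF4 on CARE elements, measured 16849 and 17337 (log2 ratio 0.04), which turned to -0.01 with lowess centring and -0.02 after quantile normalization. CHAC1, which degrades glutathione and is a textbook ATF4 target, had signals of 47.3 and 51.5, below the floor, and no ratio is given for it at that floor.

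The amino acid and serine pathway genes had a median log2 ratio of 0.14, with 6 of 8 higher, but of -0.01 over the 4 that keep a probe set when shared ones are left out. SLC7A5 (LAT1), the transporter of large neutral amino acids, had signals of 1559.5 and 2306 and was 1.47-fold higher in its single probe set. SLC3A2 (CD98), the heavy chain that brings SLC7A5 to the membrane, measured 2490.1 and 2856 (log2 ratio 0.19). Both chains of the transporter were thus on the higher side, and the value of SLC7A5 alone passed 2 SD of 1 probe set. SHMT2, the mitochondrial enzyme that turns serine into glycine and one-carbon units, had signals of 4633 and 6380.03 and was 1.37-fold higher. Its 3 probe sets gave log2 ratios from 0.46 to 0.73, the dimmer ones being the higher. ASNS, asparagine synthetase, measured 371 and 496 (log2 ratio 0.42) from 1 measured probe set, within 2 SD at that brightness.

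The enzymes that make serine differed less. PHGDH, the first and committed enzyme, measured 2408 and 2202 (log2 ratio -0.13). PSAT1, the transaminase that follows, had signals of 7428 and 7710.2, and its 2 probe sets gave 0.05 and -0.07. PSPH, the phosphatase that ends the route, measured 924 and 983 (log2 ratio 0.08), and its dimmer probe set (366 and 432) gave 0.24. MTHFD2, the mitochondrial folate enzyme downstream of SHMT2, had signals of 8046 and 7356, and its 2 probe sets gave -0.13 and -0.07. SHMT2 thus stood apart in size from the enzymes on either side of it in the route.

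**Figure D2:**
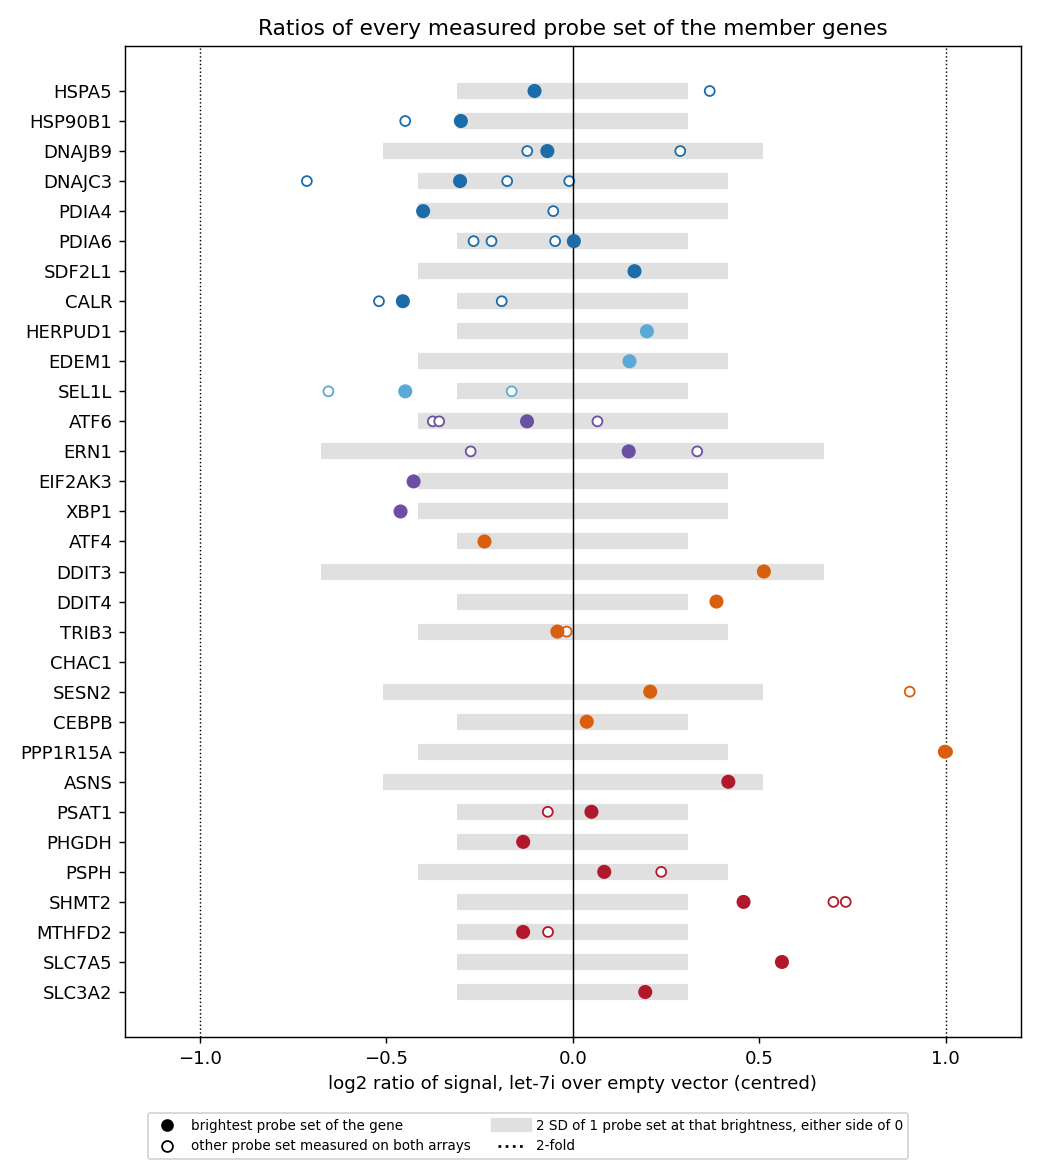
Log2 ratio of every probe set measured on both arrays (let-7i over empty vector, horizontal axis), with filled points for the brightest probe set of a gene, open points for its others, grey bars for 2 SD of 1 probe set at that brightness and dotted lines at 2-fold. The probe sets of PPP1R15A fall together on the 2-fold line, those of SHMT2 run from 0.46 to 0.73, and those of ERN1 lie on both sides of 0.

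Over all members, 4 were higher by more than 2 SD of 1 probe set (PPP1R15A, SLC7A5, SHMT2 and DDIT4) and 4 lower (XBP1, CALR, SEL1L and EIF2AK3), 13.3% in each direction against 6.89% and 7.2% of all genes measured on both arrays. This rule was chosen after the data were seen. All 4 on the higher side belong to the ATF4, stress and amino acid genes and all 4 on the lower side to the ER and sensor genes. The further lists described below did not repeat that split. There the rule gave 1 higher and 0 lower of 25 ER folding genes, and 2 and 0 of 20 degradation genes. It gave 0 and 5 of 18 sensors and regulators, 4 and 2 of 22 ATF4-linked genes, and 2 and 0 of 17 tRNA synthetases. Of the 17 members with at least 2 measured probe sets, 11 (64.7%) had all of them on one side of 0, against 51.0% of 5807 genes. The exceptions were HSPA5, DNAJB9, PDIA6, ATF6, ERN1 and PSAT1, whose brightest probe sets all lay between -0.12 and 0.15.

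The direct comparison of the groups set the 8 ER chaperones and foldases, with a median of -0.20, against the 15 measured ATF4, stress and amino acid genes, with a median of 0.19. The difference was -0.40 on the log2 scale, so relative to the chaperones the second group was 1.32-fold higher. The median of all genes is 0 by centring, and values of single genes in the groups overlap. Because the members were chosen with earlier results of these data known, the difference is a description only. Without shared probe sets the difference was -0.11, with medians of -0.06 and 0.05. Over the 6 chaperones and 9 other genes that such a selection keeps, the original probe sets gave -0.20 and 0.04, a difference of -0.24. The chaperone median thus moved with the choice of probe set, in DNAJC3 and PDIA4 above all, and that of the second group mainly with the loss of members such as SLC7A5, DDIT4 and ASNS, which have no other measured probe set.

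**Figure D3:**
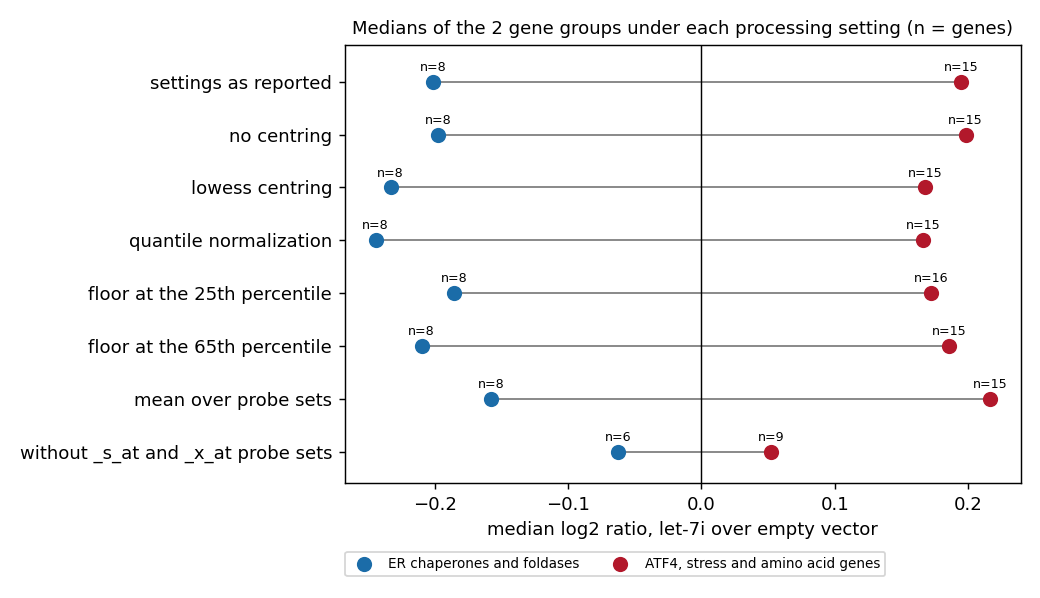
Median log2 ratio (let-7i over empty vector, horizontal axis) of the ER chaperones and foldases (blue) and of the ATF4, stress and amino acid genes (red) under each processing setting, with the number of genes beside each point. The blue median is below 0 and the red one above 0 in all 8 settings, and they lie closest, at -0.06 and 0.05, without shared probe sets.

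The promoter letters cut across the ER genes. The members with ERSE letters, printed above, had log2 ratios of -0.46 for XBP1, -0.46 for CALR, -0.30 for HSP90B1, -0.10 for HSPA5 and 0.003 for PDIA6. The 8 measured genes with ERSE letters that are not members had a median of -0.06, 5 lower and 3 higher. The ERSE-II members were on the other side, with 0.20 for HERPUD1 and 0.17 for SDF2L1. The 13 measured non-members with those letters had a median of 0.13, 9 higher and 4 lower. HYOU1, the only gene of the further ER folding list with ERSE-II letters, had -0.10. The CARE members with a ratio were all higher, with 0.42 for ASNS, 0.20 for HERPUD1 and 0.19 for SLC3A2. The 249 measured non-members with CARE letters had a median of 0.001, 125 higher and 124 lower. Among other ATF4-linked genes with CARE letters, CEBPG (0.41), SLC1A4 (0.49) and SLC7A1 (0.11) were higher. JDP2 (-1.48), ATF3 (-0.71) and SLC1A5 (-0.03) were lower. The other probe set of CEBPG gave -0.0004, and SLC1A4 was dim (90.4 and 127), near the floor of 88.0 in the empty vector. Among the stress members, PPP1R15A, DDIT3, DDIT4, TRIB3 and SESN2 had no CARE letters in the window.

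Further genes of the same pathways were taken from lists beyond the members. Other ER folding genes gave a median of -0.06, with 17 of 25 measured genes lower and none past 2-fold. FKBP11, a prolyl isomerase of secretory cells, measured 1091 and 1565, a 1.43-fold higher level, but its 3 probe sets ran from -0.23 to 1.08. DNAJC10, an ER disulfide reductase, ranged from -0.14 to 0.27 over 4 probe sets, and TXNDC11 had -0.25 in 1. Other degradation genes had a median of 0.09, with 14 of 20 higher. ERLIN1, part of a complex that degrades membrane receptors, measured 3534 and 5491 (log2 ratio 0.63), and gave -0.17 in its other probe set. RNF139, an ER ubiquitin ligase, had 0.43 in 1 probe set and UBE2G2, a conjugating enzyme, 0.40, with 3 from -0.07 to 0.40.

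Other sensors and regulators were evenly split by sign, 9 of 18 in each direction, with a median of -0.03. By size they were not, with 0 higher and 5 lower by more than 2 SD of 1 probe set, against 6.89% and 7.2% of all genes. NFYB, a subunit of the factor that binds the CCAAT letters of the ERSE, measured 2154 and 1323 (log2 ratio -0.71), though the 4 probe sets of the gene reach up to 0.05. CREB3L2, an ER membrane factor related to ATF6, was 1.35-fold lower, with -0.64 in its other probe set, and BCL2L11 (BIM), a death protein, had 6 probe sets from -0.50 to -0.05.

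Other ATF4-linked genes had a median of 0.12, with 16 of 22 measured genes higher. VEGFA, an angiogenic growth factor, measured 4103 and 6699.5 (log2 ratio 0.70), and its 4 probe sets ran from 0.58 to 1.30. The stress-induced factor ATF3 went the other way, with signals of 535 and 329 and log2 ratios of -0.71 and -0.53. JDP2, a repressor related to ATF3, was 2.79-fold lower, with signals of 684 and 246 in 1 probe set, the only one of these ATF4-linked genes past 2-fold. The cytosolic tRNA synthetases, many of them ATF4 targets, had a median of 0.14, with 13 of 17 higher and none below -0.04. RARS1, which charges arginine tRNA, had signals of 1387 and 2942 in 1 probe set and was 2.12-fold higher. YARS1, for tyrosine, had a log2 ratio of 0.51 and VARS1, for valine, of 0.29, each with a second probe set on the same side (0.16 and 0.36).

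**Figure D4:**
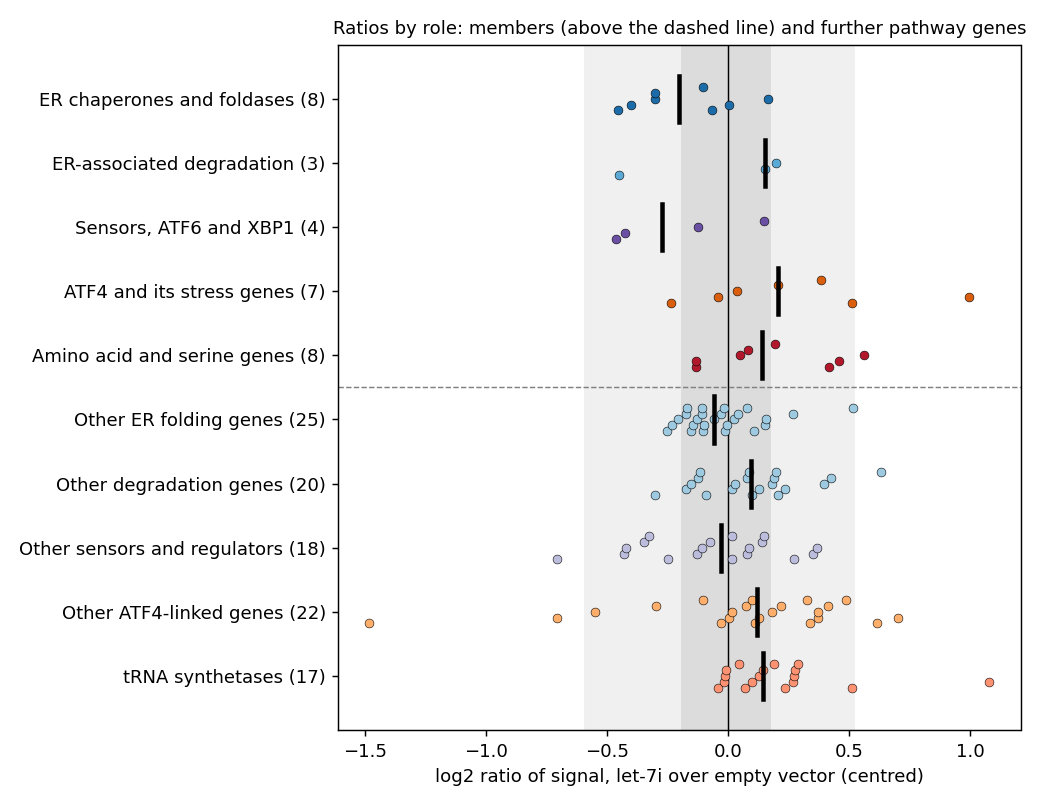
Log2 ratio (let-7i over empty vector, horizontal axis) of each gene measured on both arrays, by role, with the number of genes in brackets, black bars for medians and grey bands for the 25th to 75th and the 5th to 95th percentile of all genes. The medians of the ER folding groups are -0.20 and -0.06, those of the ATF4-linked groups and the tRNA synthetases between 0.12 and 0.21, and most single genes lie inside the outer band.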

How the data were processed

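Biotin-labelled cRNA of 2 OECM1 cultures was hybridised to 1 array each, per the labels' protocols. MAS5, per the submitters' processing notes, gave the deposited linear 1-colour signal intensities, with its version and settings not given in the sources used here. Their trimmed means (2% at each end) were 500.1 on both arrays, so differences in total RNA are removed. The 3′/5′ signal ratio of GAPDH was 0.948 (empty vector) and 0.934 (let-7i), and that of ACTB 1.21 and 1.26. Of 54675 probe sets, 41097 carried 1 platform symbol and were used. A further 3 listed a member with other genes and were left out.

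For each gene the probe set brightest on average (mean log2 signal) was used. Signals under the floor (50th percentile of the array) were set to it, and genes under it on both arrays got no ratio. Log2 ratios were centred on their median (0.0036). Calls were by size, at 2-fold. The number of arrays limits the precision. Named were all members and, of each further list, the 3 genes with the largest absolute ratio. The members and lists were chosen with earlier results of these data known. The calculation was tested on simulated data. Their noise was the same at every brightness and no change between 1.5-fold and 3-fold was planted, so calls close to 2-fold were not tried. Lowess (fraction 0.3, 3 iterations) came from statsmodels 0.14.6, run with pandas 2.3.3 and NumPy 2.4.6 under Python 3.11.15; Matplotlib 3.10.9 drew the figures.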

Additional observations from a re-analysis of the deposited data

How the results depend on the processing

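The alternatives changed the centring (none, lowess or quantile), the floor (25th or 65th percentile) and the threshold (1.5-fold or 3-fold). Probe sets were also averaged per gene, or taken without the shared ones named _s_at or _x_at. The count of members at least 2-fold higher was 0 as reported and 1 (PPP1R15A) with no centring, with a floor at the 25th percentile, with the mean over probe sets, without shared probe sets and at 1.5-fold. With the added rule of 2 SD of 1 probe set it was 4, and the count on the lower side was 4. Without shared probe sets 20 members kept a value, the chaperone median was -0.062, that of the ATF4, stress and amino acid genes 0.052 and their difference -0.11. Under the other centrings, floors and the averaged probe sets that difference lay between -0.41 and -0.36. It was -0.30 with the degradation members joined to the chaperones and -0.34 against the amino acid members alone. Of 200 values of single members under the alternatives, 194 moved by less than 1 SD of 1 probe set. The other 6 all came from changing probe sets: HSPA5, SESN2 and SHMT2 when averaged, and DNAJC3, PDIA4 and SHMT2 without shared ones. Most of the 200 come from changes of centring or floor, which shift members by little, so the count is not a measure of robustness. In at least 1 setting 5 members changed sign: HSPA5, DNAJB9, DNAJC3, PDIA6 and CEBPB. With a floor at the 25th percentile CHAC1 had a log2 ratio of 0.13. No paired analysis was possible because each group had 1 array. The spread between cultures is unknown, and differences of this size have only probe noise to be read against.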
